A study of Homo sapiens with 6 samples.

Results

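TXNIP, the arrestin-domain genes ARRDC1, ARRDC2, ARRDC3 and ARRDC4, and the MLX factors MLX, MLXIP and MLXIPL were examined in RNA-seq data of *Smyca* knockdown cells. These 8 genes of the 58302 in the count data are named by symbol as members of 2 gene families linked by function. The 5 arrestin-domain genes encode alpha-arrestins, and the 3 MLX factors are basic helix-loop-helix leucine zipper transcription factors. The question was whether the level of each gene differed between control cells and cells with less of the lncRNA *Smyca*.

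The cells were MDA-MB-231, a human breast cancer line of mesenchymal, basal-like type, maintained as its supplier advises per the labels and in DMEM with serum per the study's methods. Total RNA was sequenced from 3 libraries of cells expressing control shRNA and 3 libraries of cells expressing *Smyca* shRNA, so both groups carried an shRNA. Total read counts were 16501085, 15560192 and 14999307 in control replicates 1, 2 and 3, and 15714911, 16388020 and 15788258 in knockdown replicates 1, 2 and 3. The study calls its repeats biological, but the labels do not say that they were separate cultures, and p-values measure only the spread between these libraries. A single shRNA was used for the knockdown libraries, so its effect and that of less *Smyca* cannot be told apart here. In bulk RNA, fewer cells with a transcript and less of it per cell cannot be told apart either.

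TXNIP binds thioredoxin and promotes the internalization of glucose transporters, and its gene is known as one of the most glucose-responsive in human cells. Glucose 6-phosphate drives MLXIP (also called MondoA) and MLXIPL (also called ChREBP) to the nucleus, where each pairs with MLX and binds carbohydrate response elements. TXNIP and ARRDC4 are textbook targets of these dimers. The other alpha-arrestins link membrane proteins to ubiquitin ligases of the NEDD4 family.

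The knockdown was checked first. The *Smyca* gene, listed as MIR23AHG, had 25.0, 19.5 and 22.0 normalized CPM (counts over the TMM-scaled library size) in the control libraries and 10.5, 6.97 and 5.61 in the knockdown libraries. Each knockdown library was below each control library. The log2 fold change, given as control over knockdown throughout, was 1.53 (standard error 0.26; Benjamini-Hochberg adjusted p = 0.111, edgeR quasi-likelihood), so this difference was not a DEG by the thresholds below.

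Control replicate 2 needs a separate word. For each library, the deposited data hold a read count and an FPKM value per gene. In the other 5 libraries the FPKM value followed the count in 100% of the genes compared, to within 1%. In control replicate 2 it did so in 2.24% of 15238 genes, and 3357 genes without a read in the count column had a positive FPKM. The FPKM column of this library corresponded to 16759253 whole reads. Over 11834 genes with a mean of at least 50 counts, those reads differed from the counts of control replicate 3 by a root mean square log2 difference of 0.147, and from the counts of control replicate 2 itself by 0.574. The remaining libraries differed from those reads by 0.5112 to 0.6545. The count column was used for all results, and the fold change of each member is also given with the FPKM column. In that alternative, control replicates 2 and 3 are nearly alike, and its standard errors and p-values treat them as separate libraries.

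The marker genes showed a mixed identity. All 8 mesenchymal markers passed the filter on low counts, among them VIM at 305, 200 and 148 normalized CPM in the control and 71.2, 105 and 130 in the knockdown. Of 10 luminal markers, 7 passed, PGR was at 0 in all 6 libraries and ESR1 had at most 3 counts. Per kilobase, the keratin gene KRT8 was at 4242 ± 953 CPM and VIM at 117 ± 60.8 CPM (SD over 6 libraries). Of 12 intestinal markers 7 passed, VIL1 among them, while CDX1 was at 0 in all libraries, and HNF4A lay between 65.4 and 194 normalized CPM. The hepatocyte markers AFP, APOB, TTR and FGB were at 0, and of 6 leukocyte markers only CD14 passed, with PTPRC and HBB at 0. High keratin, villin and HNF4A levels are not what this mesenchymal line is known for, and whether the labelled line is the one sequenced was not tested.

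None of the 8 members was a DEG. DEGs were genes whose control to knockdown ratio was 1.5 or more, or 0.66 or less, at a Benjamini-Hochberg adjusted p under 0.05 over 15075 genes (edgeR quasi-likelihood). All 8 members passed the filter on low counts. With 0 of 8 members called, the share over all genes tested was 0.0265%, or 4 genes. At an unadjusted p under 0.05 there was 1 of 8 members, ARRDC3, against 19.2% of all genes tested. DESeq2's Wald test and edgeR's exact test each called 1 member, which was ARRDC3 in both cases, among 836 and 760 DEGs of the 15075 genes tested. The libraries of the 2 groups did not overlap for 2 of 8 members, against 24.8% of all genes tested. ARRDC3 was the 1 member without overlap that was higher in the control, against 12.4% of all genes tested, and ARRDC2 was the other, slightly lower in the control. In 6 of the 8 the fitted level was lower in the control and in 2 it was higher, with a median log2 fold change of -0.13 against 0.04 over all genes tested.

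**Figure D1:**
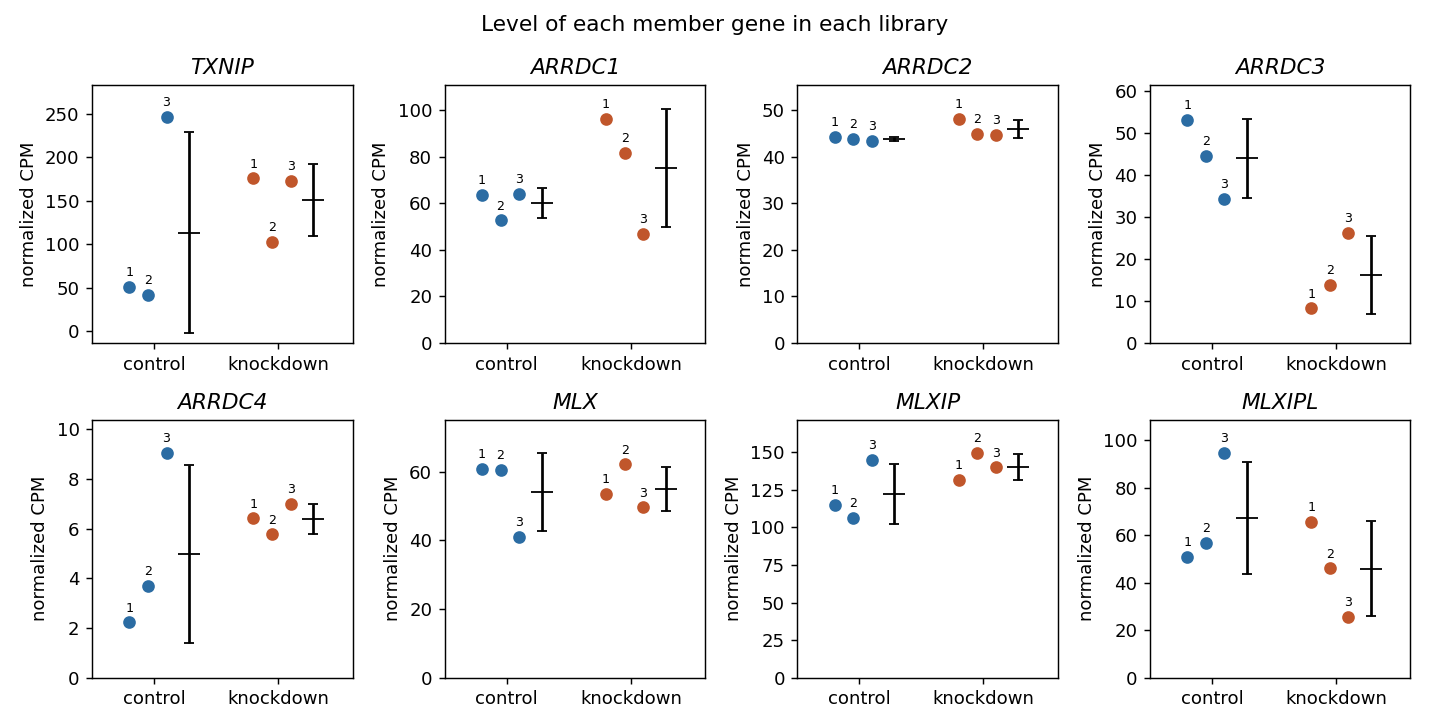
Normalized CPM (y axis) of each member in each library, with points numbered by replicate, blue for control shRNA and orange for *Smyca* knockdown, and bars at the mean ± SD (n = 3). TXNIP, ARRDC4 and MLXIPL were highest in control replicate 3. ARRDC3 had no overlap between the groups, with a lowest control value of 34.3 and a highest knockdown value of 26.3. ARRDC2 had none either, and 24.8% of all genes tested had no overlap.

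Levels of different genes were compared per kilobase of the gene length behind the authors' FPKM values. This length was 2192 bases for MLXIP, 1513 for MLX and 2168 for MLXIPL. Their exonic bases in the GRCh38 annotation were 13868, 4255 and 4815, so the order of members depends on the length used. Over the 6 libraries, the level per kilobase was 85.4 ± 52.1 CPM for TXNIP, 67.4 ± 18.4 for ARRDC1 and 59.9 ± 7.81 for MLXIP (SD). These 3 did not differ beyond their spread. MLX followed at 36.0 ± 5.46 CPM per kilobase, ARRDC2 at 31.9 ± 1.22 and MLXIPL at 26.1 ± 10.6. The ARRDC2 mean lay within the spread of MLX and within that of MLXIPL. MLXIP lay above MLX in every library by the authors' lengths, whereas with exonic bases MLX lay above MLXIP in most libraries. The place of ARRDC3 depended on the group. Per kilobase it was at 41.0 ± 8.77 CPM in the control, with a mean above those of MLX, ARRDC2 and MLXIPL, and at 15.0 ± 8.63 in the knockdown, with a mean below all 3 (SD, n = 3). ARRDC4 was lowest, at 1.40 ± 0.596 CPM per kilobase, below each of the other members in every library. ARRDC5, a further arrestin-domain gene, had 0 counts in all 6 libraries. By the authors' lengths, MLXIPL, the paralog best known from liver and fat, was below MLXIP in every library. With exonic bases this order turned in most libraries, among them every control library.

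TXNIP was the most variable member among the control libraries. Its level was low in control replicates 1 and 2, high in control replicate 3 and intermediate in all 3 knockdown libraries, so the sign of its difference depended on which control library was used. The gene (ENSG00000265972) lies on the minus strand of chromosome 1, from 145992435 to 145996579 in GRCh38.

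TXNIP and ARRDC4 are shown here with their upstream sequence because both are known MLX targets and their levels followed a like pattern over the libraries. ARRDC3 is shown for contrast. RefSeq (GRCh38.p14) gave promoter entries for all 8 members, and the 250 bases before the first listed start are printed in the direction of transcription, with capitals for matches to the tandem and E-box patterns named below (CCAAT matches are left in lower case, and ARRDC3 has no match to the other patterns). The TXNIP sequence is chr1:145996580-145996829 on the minus strand, that of ARRDC4 chr15:97960453-97960702 on the plus strand, and that of ARRDC3 chr5:91383318-91383567 on the minus strand.
TXNIP: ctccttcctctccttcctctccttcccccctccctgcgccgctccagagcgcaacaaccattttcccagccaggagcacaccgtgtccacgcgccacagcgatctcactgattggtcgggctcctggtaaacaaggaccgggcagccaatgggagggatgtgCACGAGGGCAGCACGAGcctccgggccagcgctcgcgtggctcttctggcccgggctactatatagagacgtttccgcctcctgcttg
ARRDC4: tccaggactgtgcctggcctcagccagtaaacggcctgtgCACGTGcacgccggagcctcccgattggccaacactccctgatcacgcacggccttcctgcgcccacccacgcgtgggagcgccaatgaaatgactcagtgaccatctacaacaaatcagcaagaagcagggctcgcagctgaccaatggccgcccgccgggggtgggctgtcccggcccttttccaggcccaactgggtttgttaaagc
ARRDC3: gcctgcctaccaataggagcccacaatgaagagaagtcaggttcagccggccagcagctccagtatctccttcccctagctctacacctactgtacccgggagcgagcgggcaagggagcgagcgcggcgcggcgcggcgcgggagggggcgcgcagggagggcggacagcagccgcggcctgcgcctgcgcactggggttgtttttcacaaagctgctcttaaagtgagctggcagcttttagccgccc

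The tandem pattern of the carbohydrate response element was searched on both strands as 2 copies of CACGNG with 5 bases between them, and in a looser form that fixes fewer letters, and the palindromic E-box as CACGTG. The strict tandem pattern occurred once before the start of TXNIP, from position -88 to -72, and in 16 of 35116 RefSeq promoter windows of 250 bases (0.0456%). No other member had it in its window. The E-box CACGTG occurred from -210 to -205 in ARRDC4 and from -50 to -45 in MLX, and in 6.34% of all windows. In MLX a match to the looser pattern ran from -61 to -45 on the minus strand and covered the E-box, and 4.93% of all windows held that pattern. CCAAT, the letters of the NF-Y box, was present in TXNIP in both directions, at -105 to -101 and, as its complement, at -140 to -136. It was also present in ARRDC4, where 3 matches were counted, in ARRDC3 at -241 to -237, and in ARRDC1, MLX and MLXIP. ARRDC2 had it only before its other listed start, MLXIPL had none, and 32.0% of all windows held a match. A match describes letters only, and binding was not measured.

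TXNIP counts were 825, 674 and 3848 in control replicates 1, 2 and 3 and 2766, 1622 and 2622 in knockdown replicates 1, 2 and 3. As normalized CPM, TXNIP was at 50.9, 41.5 and 246 in the control libraries and at 176, 103 and 173 in the knockdown libraries. Control replicates 1 and 2 were below all 3 knockdown libraries and control replicate 3 was above them all, so the groups overlapped. The means were 113 ± 116 and 151 ± 41.4 (SD, n = 3), and the fitted log2 fold change was -0.41 (standard error 0.61; Benjamini-Hochberg adjusted p = 0.740, edgeR quasi-likelihood). A two-sided exact permutation test gave p = 0.8, where 0.1 is the smallest p that 3 against 3 libraries allow. The highest control value was 5.94 times the lowest, and a ratio this large was found in 2.07% of 15037 tested genes with counts in every library. Among the knockdown libraries the ratio was 1.71, which 25.2% of those genes reached.

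The TXNIP value moved with single libraries. Without control replicate 3, TXNIP had a log2 fold change of -1.71 and a Benjamini-Hochberg adjusted p of 0.00841 (edgeR quasi-likelihood), and was a DEG among 1628. Over all alternatives this adjusted p ranged from 0.00841 to 0.989. Without control replicate 1 the log2 fold change was -0.07, without control replicate 2 it was -0.02 and without knockdown replicate 2 it was -0.63. With reads from the FPKM values of control replicate 2 in place of its counts, TXNIP was at 237 normalized CPM in that library (4096 reads against 674 counts), and the log2 fold change turned to 0.24 (standard error 0.53, edgeR adjusted p = 0.823). Its direction thus differed between these fits.

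**Figure D2:**
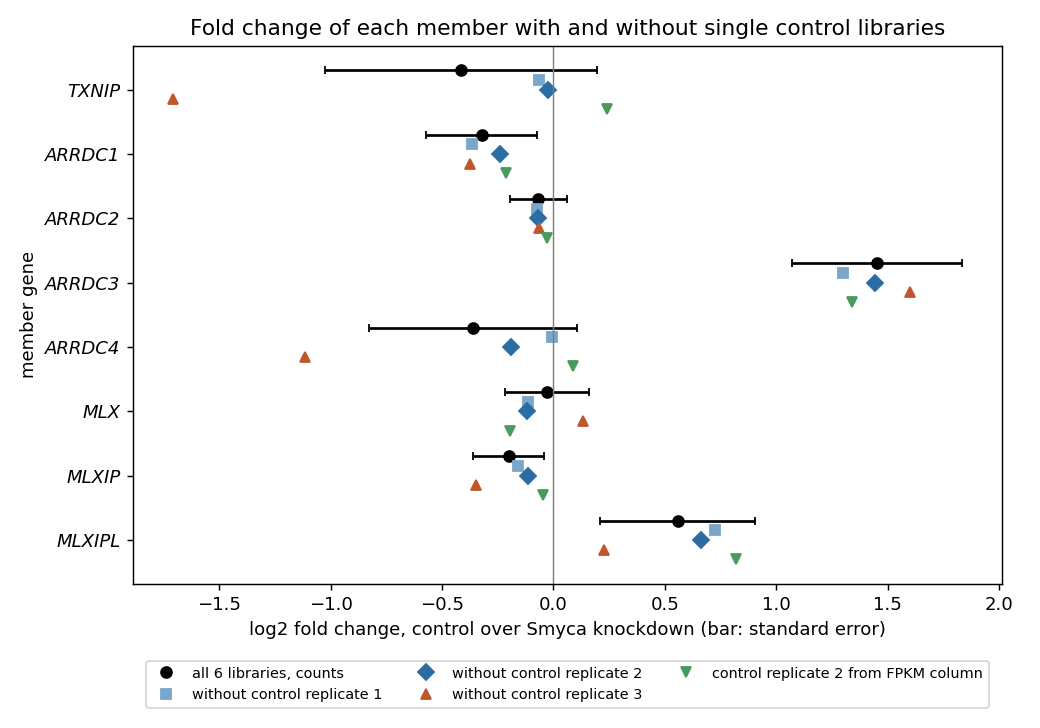
Log2 fold change of control over *Smyca* knockdown (x axis) for each member with all 6 libraries (black, bar: standard error), with each control library left out, and with control replicate 2 taken from its FPKM column. TXNIP moved between -1.71 and 0.24 and ARRDC4 between -1.11 and 0.09, whereas ARRDC3 lay between 1.30 and 1.599 in these 5 fits.

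By the root mean square difference of centred log2(CPM + 1) values over the 6 libraries, the genes with the pattern most like that of TXNIP were NOTUM (0.332), KCNT1 (0.359), MT-CYB (0.375), DUXAP8 (0.385) and AP5S1 (0.386). This search covered tested genes with a mean of at least 10 normalized CPM. In each of these 5 genes control replicates 1 and 2 were below the other 4 libraries and control replicate 3 was highest. MT-CYB, for example, was at 28.6, 37.2 and 162 normalized CPM in the control and at 93.9, 112 and 102 in the knockdown. Within the members, the pattern of TXNIP was nearest to that of ARRDC4, at 0.4996, and farthest from that of ARRDC3, at 1.61.

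ARRDC4, the alpha-arrestin most closely tied to TXNIP in its regulation, had few counts, namely 36, 60 and 141 in the control libraries and 101, 91 and 106 in the knockdown libraries. Its normalized CPM was 2.22, 3.69 and 9.03 in the control and 6.41, 5.77 and 6.999 in the knockdown. Control replicates 1 and 2 were again the lowest libraries and control replicate 3 the highest, and the groups overlapped. The means were 4.98 ± 3.58 and 6.39 ± 0.617 (SD, n = 3), and the fitted log2 difference was -0.36 (standard error 0.47; Benjamini-Hochberg adjusted p = 0.701, edgeR quasi-likelihood). Without control replicate 3 the log2 fold change was -1.11 with an edgeR adjusted p of 0.0526 (0.0526 to 0.996 over all alternatives), above the threshold. Without control replicate 1 it was -0.01 and without control replicate 2 it was -0.19. With the FPKM column of control replicate 2, where ARRDC4 had 159 reads, it turned to 0.09 (standard error 0.48).

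**Figure D3:**
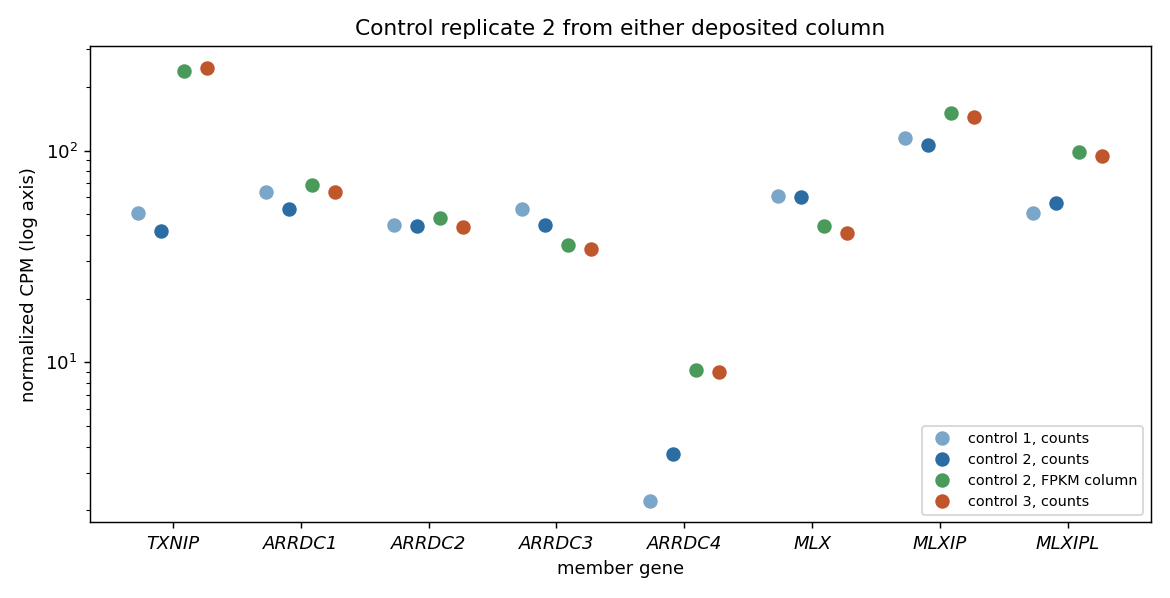
Normalized CPM (log axis) of each member in control replicates 1 and 3 from counts and in control replicate 2 from either of its deposited columns. For TXNIP, ARRDC4 and MLXIPL the FPKM column of control replicate 2 (237, 9.20 and 98.2) lay beside control replicate 3 (246, 9.03 and 94.5), and its counts (41.5, 3.69 and 56.8) lay beside control replicate 1.

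ARRDC3 was the member with the largest fitted difference, and its level was higher in the control. ARRDC3 is an adaptor for NEDD4-family ligases that acts on beta-adrenergic receptors and on integrin beta 4, and is described as a tumor suppressor in basal-like breast cancer. Its level was about 2.74-fold higher in control than in knockdown libraries by the fit, a difference that missed the threshold after adjustment. The gene (ENSG00000113369) lies on the minus strand of chromosome 5, from 91368631 to 91383317 in GRCh38.

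ARRDC3 counts were 861, 723 and 536 in the control libraries and 129, 217 and 398 in the knockdown libraries. Its normalized CPM was 53.1, 44.5 and 34.3 in the control and 8.19, 13.7 and 26.3 in the knockdown. Each control library was above each knockdown library, with the smallest gap between control replicate 3 and knockdown replicate 3. The means were 43.98 ± 9.41 and 16.1 ± 9.27 (SD, n = 3). The log2 fold change was 1.45 (standard error 0.38), with a Benjamini-Hochberg adjusted p of 0.126 (edgeR quasi-likelihood). A two-sided exact permutation test gave p = 0.1, the smallest it can give here. With Benjamini-Hochberg adjustment in each case, the adjusted p was 0.00689 with DESeq2's Wald test, 0.0137 with edgeR's exact test, 0.00108 without the filter on low counts and 0.0359 without control replicate 3. Over all alternatives it ranged from 0.00108 to 0.440, with a log2 fold change between 1.13 and 1.99. With the FPKM column of control replicate 2 the log2 fold change was 1.34. Among the knockdown libraries the highest ARRDC3 value was 3.21 times the lowest, a ratio that 5.62% of the genes reached.

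The antisense gene ARRDC3-AS1 shares 145 exonic bases with ARRDC3 and had between 5 and 29 counts, so its reads were few beside those of ARRDC3. Whether the counting used strand is not given in the sources used here. The 5 genes with the pattern most like that of ARRDC3 were NR4A1 (0.213), PKIB (0.271), FOXD1 (0.291), ABLIM3 (0.304) and ANXA1 (0.307). NR4A1, an immediate-early nuclear receptor gene, was at 47.4, 52.9 and 33.2 normalized CPM in the control and 9.65, 10.96 and 31.0 in the knockdown. As in ARRDC3, knockdown replicate 3 was the knockdown library nearest to the control.

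ARRDC2 was the most even member. It was at 44.3, 43.8 and 43.5 normalized CPM in the control libraries and at 48.3, 45.0 and 44.7 in the knockdown libraries. The groups did not overlap, with a gap from 44.3 in control replicate 1 to 44.7 in knockdown replicate 3, and the log2 fold change was -0.07 (standard error 0.13, edgeR adjusted p = 0.8004 with Benjamini-Hochberg adjustment). It was -0.03 with the FPKM column of control replicate 2, where the groups overlapped. With library totals in place of TMM factors its sign turned (0.00073), so no direction can be read from it. The genes with the pattern most like its own were TMEM248 (0.0260), GGH (0.0316), LRRC1 (0.0343), ZNHIT3 (0.0362) and BUB3 (0.0389), all with a nearly flat level.

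ARRDC1, which recruits NEDD4-family ligases and ESCRT components in the budding of microvesicles from the plasma membrane, was at 63.7, 52.7 and 64.0 normalized CPM in the control and at 96.4, 81.9 and 47.0 in the knockdown. Knockdown replicates 1 and 2 were above the control and knockdown replicate 3 was below it, so the groups overlapped. The means were 60.1 ± 6.44 and 75.1 ± 25.4 (SD, n = 3) and the log2 fold change was -0.32 (standard error 0.25, edgeR adjusted p = 0.508 with Benjamini-Hochberg adjustment). Without knockdown replicate 1 it was -0.11, without knockdown replicate 3 it was -0.58 and with the FPKM column of control replicate 2 it was -0.21. Its antisense neighbour ARRDC1-AS1, which shares 35 exonic bases with it, was at 38.1, 45.3 and 37.7 normalized CPM in the control and at 58.2, 61.1 and 35.8 in the knockdown. Knockdown replicate 3 was the lowest library in this gene too, and reads on the shared bases cannot be told apart if strand was not used in the counting.

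Of the MLX factors, none differed between the groups beyond the spread of its libraries. MLX, the shared dimer partner, was at 60.7, 60.4 and 40.9 normalized CPM in the control and at 53.4, 62.1 and 49.6 in the knockdown. Control replicate 3 was the lowest library, the opposite of TXNIP, and the groups overlapped. The means were 54.0 ± 11.3 and 55.0 ± 6.41 (SD, n = 3). The log2 fold change of MLX was -0.03 (standard error 0.19, edgeR adjusted p = 0.947 with Benjamini-Hochberg adjustment), was -0.20 with the FPKM column of control replicate 2, and turned to 0.13 without control replicate 3, to 0.06 without knockdown replicate 2 and to 0.04 with library totals in place of TMM factors. MLX shares 775 exonic bases with PSMC3IP on the opposite strand, which had between 176 and 342 counts, so the MLX level is uncertain if strand was not used.

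MLXIP, the glucose sensor that is abundant in muscle, was at 115, 106 and 145 normalized CPM in the control and at 132, 149 and 140 in the knockdown. Control replicates 1 and 2 were below all knockdown libraries, whereas control replicate 3 lay among them. The means were 122 ± 20.1 and 140 ± 8.76 (SD, n = 3), and the fitted log2 difference was -0.20 (standard error 0.16, edgeR adjusted p = 0.516 with Benjamini-Hochberg adjustment), -0.35 without control replicate 3, -0.12 without control replicate 2 and -0.05 with the FPKM column of control replicate 2.

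MLXIPL was at 50.8, 56.8 and 94.5 normalized CPM in the control and at 65.7, 46.0 and 25.7 in the knockdown. It was highest in control replicate 3 and lowest in knockdown replicate 3, with overlap between the groups. The means were 67.4 ± 23.6 and 45.8 ± 20.0 (SD, n = 3). The log2 fold change was 0.56 (standard error 0.35, edgeR adjusted p = 0.413 with Benjamini-Hochberg adjustment), 0.23 without control replicate 3, 0.90 without knockdown replicate 1, 0.26 without knockdown replicate 3 and 0.82 with the FPKM column of control replicate 2. MLX, MLXIP and MLXIPL thus each had a different order of libraries.

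The other partners of MLX are the repressors MXD1, MXD4 and MNT. All 3 were tested, 0 were DEGs by edgeR's quasi-likelihood test, and their median log2 fold change was 0.09 (0.02 to 0.18 with 1 library left out) against 0.04 over all genes tested. At an unadjusted p under 0.05 there was 1 gene, MXD1, where 19.2% of all genes tested reached this level. MXD1 was at 108, 75.0 and 68.2 normalized CPM in the control and at 53.5, 46.0 and 42.5 in the knockdown, without overlap (log2 fold change 0.82, edgeR adjusted p = 0.122 with Benjamini-Hochberg adjustment). MXD4 and MNT, with log2 fold changes of 0.01 and 0.09, overlapped.

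Of 16 genes that respond to glucose, 14 were tested and 0 were DEGs by edgeR's quasi-likelihood test, and at an unadjusted p under 0.05 there were 2 higher and 6 lower in the control, against 19.2% of all genes tested in either direction. The median log2 fold change was -0.29, and -0.43 without knockdown replicate 3 and -0.16 without knockdown replicate 2. The lipogenic genes SCD, FASN and ACACA were lower in every control library than in any knockdown library. SCD was at 562.5, 677 and 531 normalized CPM in the control and 1344, 1329 and 1008 in the knockdown. FASN was at 1015, 1712 and 1600 against 2717, 3730 and 2860, and ACACA at 85.7, 120 and 126 against 201, 213 and 194. Their log2 fold changes were -1.06, -1.10 and -0.88, each at a Benjamini-Hochberg adjusted p of 0.111 (edgeR quasi-likelihood). Unlike TXNIP, these 3 genes were not high in control replicate 3. BHLHE40, a clock and hypoxia gene of the same list, was at 750, 409 and 122 normalized CPM in the control and 77.8, 72.9 and 78.6 in the knockdown (log2 fold change 2.48).

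TXNIP is named for its binding to thioredoxin, and 12 genes of the thioredoxin system were all tested, with 0 DEGs by edgeR's quasi-likelihood test, 3 higher and 9 lower in the control, and a median log2 fold change of -0.26. At an unadjusted p under 0.05 there were 3 of the 12, all lower in the control, against 19.2% of all genes tested. MSRB1 was at 43.998, 58.6 and 50.1 normalized CPM in the control and at 64.4, 92.2 and 91.8 in the knockdown, without overlap. PRDX2, PRDX1 and TXN2 also had no overlap, with log2 fold changes of -0.44, -0.39 and -0.29. In all, 5 genes without overlap were lower and 1 was higher in the control, where 24.8% of all genes tested had no overlap.

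Glucose transporters are the cargo of TXNIP. Of 10 SLC2A genes 9 were tested, SLC2A2 was at 0 in all libraries, and the median log2 fold change was 0.43 with 0 DEGs by edgeR's quasi-likelihood test and 3 of 9 genes at an unadjusted p under 0.05 (19.2% of all genes tested). This median was 0.18 without control replicate 2 and 0.15 with its FPKM column. SLC2A3 was at 1079, 512 and 215 normalized CPM in the control and at 175, 158 and 145 in the knockdown, highest in control replicates 1 and 2, where TXNIP was lowest (log2 fold change 1.92, edgeR adjusted p = 0.124 with Benjamini-Hochberg adjustment). SLC2A10 and SLC2A8 had log2 fold changes of 1.11 and 0.60 and SLC2A6 of -0.70. Of the genes of glucose phosphorylation, the step that makes the signal for MLX dimers, HK1, HK2 and HKDC1 were tested, with a median log2 fold change of 0.68, 0 DEGs by edgeR and 1 gene (HKDC1) at an unadjusted p under 0.05. Without control replicate 1 their median was 0.25. HK2 was at 363, 215 and 119 normalized CPM in the control and at 125, 138 and 161 in the knockdown, again high in control replicates 1 and 2.

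The HECT ubiquitin ligases that bind the PPxY motifs of alpha-arrestins had a median log2 fold change of 0.03 over 7 of 9 genes tested (-0.05 to 0.13 with 1 library left out) and 0 DEGs by edgeR. WWP2 was the 1 gene of 7 at an unadjusted p under 0.05 (19.2% of all genes tested), at 193, 187 and 170 normalized CPM in the control and 239, 242 and 272 in the knockdown. SMURF2, WWP1 and SMURF1 had log2 fold changes of 0.39, -0.23 and 0.16. Among 8 tested genes of arrestin cargo and trafficking the median was -0.15, with 0 DEGs by edgeR and 1 gene (ARRB1) at an unadjusted p under 0.05. ITGB4, the integrin on which ARRDC3 acts, was at 2629, 1363 and 786 normalized CPM in the control and 1051, 860 and 961 in the knockdown, with overlap. ARRB1, ARRB2 and VPS4B had log2 fold changes of -0.65, -0.31 and -0.25.

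Known regulators and partners of TXNIP had a median log2 fold change of 0.05 over 10 tested genes (-0.06 to 0.17 with 1 library left out), with 0 DEGs by edgeR and 3 genes at an unadjusted p under 0.05 (19.2% of all genes tested). DDIT4, a stress-induced inhibitor of mTORC1 that forms a complex with TXNIP, was at 1289, 853 and 112 normalized CPM in the control and 211, 56.8 and 175 in the knockdown. It was high in control replicates 1 and 2 and low in control replicate 3, whereas TXNIP was low in the former and high in the latter. In the knockdown libraries both genes ran in the same order, highest in replicate 1 and lowest in replicate 2. NFYA, NR3C1 and PRKAA2 had log2 fold changes of -0.41, 0.68 and 0.18. TXNIP, ARRDC2 and ARRDC3 also respond to glucocorticoids, and 7 tested glucocorticoid-induced genes had a median of 0.98 (0.56 without knockdown replicate 2), with 0 DEGs by edgeR and 4 genes at an unadjusted p under 0.05. ERRFI1, SGK1 and PER1 were higher in the control by 1.502, 1.94 and 0.99 on the log2 scale and FKBP5 was at -0.64, so the list was not of 1 direction.

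Hypoxia-inducible genes were given beside the members because their summed level was highest in the libraries in which TXNIP was lowest. All 12 were tested, all 12 had a higher fitted level in the control, 9 at an unadjusted p under 0.05 (19.2% of all genes tested), and 0 were DEGs by edgeR's quasi-likelihood test. Since the list was chosen by its level in control libraries, these counts partly restate that choice and test nothing. Their median log2 fold change was 1.33, and 0.86 without control replicate 1. Summed over the list, the level was 2183, 1150 and 512 normalized CPM in the control libraries and 466, 318 and 440 in the knockdown libraries. Control replicates 1 and 2 were high, and control replicate 3 was close to the knockdown libraries. ADM was at 64.0, 23.1 and 11.9 normalized CPM in the control and 3.94, 5.19 and 6.07 in the knockdown, while ANKRD37, KDM3A and EGLN3 had log2 fold changes of 2.23, 1.31 and 2.28. The part of these differences in the TXNIP and ARRDC4 values was not tested.

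Marker lists also differed between libraries. The 8 mesenchymal markers summed to 2370, 1809 and 1068 normalized CPM in the control and to 961, 1054 and 1382 in the knockdown, with overlap between the groups. All 8 had a higher fitted level in the control, with 6 at an unadjusted p under 0.05 (19.2% of all genes tested), 3 without overlap and higher in the control (12.4% of all genes tested), 0 DEGs by edgeR and a median log2 fold change of 1.00. The 10 luminal markers summed to 7912, 7603 and 6822 against 7372, 9169 and 10124. KRT8 was the largest part of this sum, at 4715, 4775 and 4249 against 5083, 6504 and 7408. Of the 7 luminal markers tested, 5 were higher and 2 lower in the control. Their median log2 fold change was 0.04 (-0.10 to 0.29 with 1 library left out). The 12 intestinal markers summed to 688, 694 and 399 against 843, 830 and 680. Of the 7 intestinal markers tested, 3 were higher and 4 lower in the control. Their median log2 fold change was -0.28 (-0.37 to -0.11 with 1 library left out). The 6 leukocyte markers summed to at most 1.66 normalized CPM in any library. Control replicate 3, where TXNIP was highest, had the lowest intestinal sum, and the part of cell makeup in the member values was not tested.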

How the data were processed

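The authors removed ribosomal RNA, made strand-specific libraries and mapped paired-end reads to hg38 with TopHat2 2.0.12, per the submitters' notes and the study's methods. They deposited 1 raw read count (HTSeq) and 1 FPKM value per gene and library. The annotation release and strand setting of the counting are not given in the sources used here. Symbols came from GENCODE and matched 57532 of 58302 identifiers. Counts were tested in R 4.3.3 with edgeR 4.0.16 (TMM factors, filterByExpr, quasi-likelihood test, Benjamini-Hochberg adjustment over 15075 genes). The biological coefficient of variation was 25.2%. DESeq2 1.42.0 served as an alternative, and the study's own DESeq was not used here. Standard errors were taken as the log2 fold change divided by the square root of the edgeR F statistic. Permutation tests used scipy 1.17.1.

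Groups and replicate numbers came from the sample labels. For control replicate 2, reads were also recovered from FPKM values, with gene lengths given by the other 5 libraries, and 100% of values under 100 reads were whole within 0.05. Members and lists were chosen with earlier results of these data known. Genes named are all members, ARRDC5, up to 4 genes with the smallest p in each list, and the 5 genes with the smallest root mean square difference from TXNIP and from members without overlap. Marker genes, genes at 0 counts, antisense or overlapping genes and MIR23AHG are named beside these. Alternatives were RLE factors, library totals, a filter of 1 count only, a filter of 10 counts in each library, DESeq2, edgeR's exact test, a replicate block, each library left out, the FPKM column of control replicate 2, and other thresholds. Results of some genes in these lists are not reported here.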

Additional observations from a re-analysis of the deposited data

Results flagged for a closer look

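The FPKM column of control replicate 2, which serves only as an alternative, gave levels above those of all 3 control count columns for 5 members. As normalized CPM they were 68.4 for ARRDC1, 48.2 for ARRDC2, 9.20 for ARRDC4, 150 for MLXIP and 98.2 for MLXIPL, against highest control values from counts of 64.0, 44.3, 9.03, 145 and 94.5. The counts of the same library gave 52.7, 43.8, 3.69, 106 and 56.8. Why the columns differ was not tested.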

How the results depend on the processing

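Of 155 recomputed values, 123 were alike, by direction and side of the threshold for fold changes and by size for counts, and 32 were not. Of these 32, 21 were counts of genes that moved, 6 were fold changes that turned and 5 were fold changes that passed the threshold. The number of DEGs over all genes, 4 with all libraries and edgeR's quasi-likelihood test, was 8 with library totals, 916 without the filter, 836 with DESeq2, 760 with edgeR's exact test, 10 with the FPKM column of control replicate 2, 8 at an adjusted p under 0.1 and between 0 and 1628 with 1 library left out, the highest being without control replicate 3. The number of member DEGs was 1 without the filter, with DESeq2 and with the exact test (ARRDC3, log2 fold change 1.42, 1.44 and 1.45), and between 0 and 2 with 1 library left out, the 2 being TXNIP and ARRDC3 without control replicate 3. Members without overlap numbered 1 with library totals, with at least 10 counts in every library and with the FPKM column of control replicate 2, and between 2 and 5 with 1 library left out. The share over all genes is not given for these settings. Groups separate more readily with fewer libraries, so the counts with 1 library left out cannot be read against the 24.8% of the full design. With 1 library left out, the log2 fold change lay between -1.71 and -0.0233 for TXNIP, between 1.13 and 1.99 for ARRDC3 and between -0.12 and 0.13 for MLX, which turned to 0.13 without control replicate 3 and to 0.06 without knockdown replicate 2. With library totals ARRDC2 turned to 0.00073 and MLX to 0.0389, and with the FPKM column of control replicate 2 TXNIP turned to 0.24 and ARRDC4 to 0.0877; the cause was not tested.

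With the replicate number as a block (replicate block), 0 genes were DEGs, TXNIP had a log2 fold change of -0.88 and ARRDC3 of 1.58. Deviations of samples with the same number correlated at 0.061, 0.084 and -0.014 over 15075 genes, so the numbers were not taken to pair the samples. Control replicate 1 correlated more with knockdown replicate 3 (0.074) than with its own number. ARRDC4, at 36 to 141 counts, is the member most limited by depth.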
